A study of Mus musculus with 30 samples.

Results

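The set described here is 10 genes: 4 Fos family genes (Fos, Fosb, Fosl1 and Fosl2), 3 Jun family genes (Jun, Junb and Jund), and the immediate early transcription factor genes Egr1, Klf6 and Myc. They were chosen by symbol, through the Ensembl identifiers of the deposited table and the GENCODE M21 annotation, as a set drawn up with earlier results of these data known. All 10 were found among the 29861 genes of the table. All 10 also passed the filter on low values, at least 1 TPM (transcripts per 1000000 transcripts, a level relative to transcript length and to the library's total) in at least 3 libraries, which left 13644 genes for testing.

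RNA came from CCG-HTA-1, a primary fibroblast line grown from the tails of UMHet3 mice, a genetically mixed stock, aged 5 to 8 weeks. For Dihydrorotenone replicate 1 the labels give 8 to 11 weeks. All groups shared passage 4, ambient oxygen, high-glucose medium and 48 hours of exposure, and differed in the agent. The controls received DMSO, the solvent, in 6 libraries, whereas the series text counts 5. Each compound had 3 libraries: Antimycin A and Dihydrorotenone, inhibitors of the mitochondrial respiratory chain, Diphenyleneiodonium Cl, which inhibits flavoenzymes, Cardamonin, a chalcone from plants, BerberineA as the labels spell it, Clofilium tosylate, a blocker of potassium channels, AEG 3482, reported to lower JNK signalling through heat shock proteins, and Podofilox, an inhibitor of microtubule assembly. The labels used here give no dose. All libraries came from 1 cell line, and nothing in the labels ties a library to a separate animal, so p-values measure the spread between these libraries only.

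Fos and Jun proteins carry a basic leucine zipper and pair to form AP-1, a factor that binds regulatory DNA of genes for proliferation, matrix turnover and stress responses. Fos, Fosb, Junb and Egr1 are the classic immediate early genes: growth factors or stress, acting through ERK, p38 and JNK kinases, switch them on within minutes and only briefly, and their messages decay fast. Fosl1, Fosl2 and Jund respond more slowly or stay on, and Fosl1 and Myc are known to follow sustained ERK signalling. In fibroblasts these genes are known above all from the response of resting cells to serum.

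The promoters of Fos, Junb and Jun are shown because Fos and Junb varied together between replicate libraries, as described further on, while Jun stayed steady. Each is the 150 bases before the RefSeq start (build GRCm38.p6), 5′ to 3′ on the gene's strand: Fos at chr12:85473740-85473889 on the plus strand, Junb at chr8:84978749-84978898 on the minus strand and Jun at chr4:95052223-95052372 on the minus strand. Capitals mark every match to the motifs searched on both strands: TGACTCA (the classic AP-1 site), TGACATCA (the AP-1 variant known from Jun promoters), TGACGTCA (the cyclic AMP response element), its TGACG core, the CArG box bound by serum response factor, GGGCGG (the GC box), the CCAAT box, the TATAAA box, the CACGTG element (the E-box bound by MYC) and TGACNNNGC (the antioxidant response element core).
Fos: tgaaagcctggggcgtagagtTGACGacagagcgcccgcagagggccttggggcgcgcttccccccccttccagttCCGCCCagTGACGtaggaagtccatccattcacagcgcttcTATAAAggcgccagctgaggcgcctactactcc
Junb: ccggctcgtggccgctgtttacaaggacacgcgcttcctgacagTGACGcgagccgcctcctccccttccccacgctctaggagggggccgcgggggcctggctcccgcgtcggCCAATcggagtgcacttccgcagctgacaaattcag
Jun: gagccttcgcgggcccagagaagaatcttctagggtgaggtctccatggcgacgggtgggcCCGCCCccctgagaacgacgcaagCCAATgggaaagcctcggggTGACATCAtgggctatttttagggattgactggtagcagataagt

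The Fos stretch held TGACG at 2 places, a GC box on the other strand and TATAAA. The Junb stretch held TGACG and CCAAT. The Jun stretch held no TGACG but had TGACATCA, 45 to 38 bases before the start, with CCAAT and a GC box on the other strand. RefSeq promoters were at hand for 7 of the 10 genes (Fos, Fosb, Fosl2, Jun, Junb, Jund and Klf6). Over the 250 bases before the start, TGACG was in 3 of the 7 (Fos, Fosb and Junb), against 17.8% of 32851 promoters of the same length. TGACATCA was in 2 of the 7 (Jun and Klf6), against 2.93% of promoters. Both TGACTCA (4.46% of promoters) and the CArG box (1.47%) were without a match in all 7. The RefSeq windows of Jund (ending at 70697738) and Fosl2 (ending at 32136471) do not adjoin the GENCODE starts printed below for these genes, since RefSeq places the start of Jund further upstream and that of Fosl2 further downstream. A match is a description of letters, and the absence of a match says only that these letters are not in this window.

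Each gene was compared with DMSO in each compound by limma on log2(TPM + 1), with Benjamini-Hochberg adjustment over all 13644 genes and a threshold of 0.05. Adjusted p-values given here and below come from that test, and log2 fold changes on this scale understate the change of genes with low TPM. Of the 80 gene-by-compound tests, 44 passed. Cardamonin changed 8 of the 10 genes, against 70.3% of all genes tested, and AEG 3482 changed 8, against 68.1%. Podofilox changed 7 (46.2% of all genes), BerberineA 6 (21.7%), Antimycin A 5 (37.3%), Diphenyleneiodonium Cl 4 (25.7%), Clofilium tosylate 3 (23.4%) and Dihydrorotenone 3 (14.4%). The counts for Cardamonin and AEG 3482 were thus near the share of all genes.

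The direction differed between compounds. AEG 3482 raised 6 of the 10 genes and lowered 2, and Podofilox raised 6 and lowered 1, with median log2 fold changes over the 10 of 0.49 and 0.33. The median over all genes was 0.10 in AEG 3482 and 0.04 in Podofilox. Cardamonin raised 3 and lowered 5 (median -0.01, against 0.03 over all genes). BerberineA raised 2 and lowered 4, Antimycin A raised 2 and lowered 3, Diphenyleneiodonium Cl raised 2 and lowered 2, and Dihydrorotenone and Clofilium tosylate each lowered 3 and raised 0. Of all genes, 41.3% were called higher and 26.8% lower in AEG 3482, 26.2% and 19.97% in Podofilox, and 37.3% and 33.0% in Cardamonin. These shares were 12.6% and 9.16% in BerberineA, 21.8% and 15.5% in Antimycin A, and 14.0% and 11.7% in Diphenyleneiodonium Cl. They were 4.95% and 9.43% in Dihydrorotenone, and 10.9% and 12.5% in Clofilium tosylate. By gene, Fosl1, Klf6 and Myc passed in 7, 8 and 7 of the 8 compounds, while Egr1 and Fosb passed in 1 compound each.

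**Figure D1:**
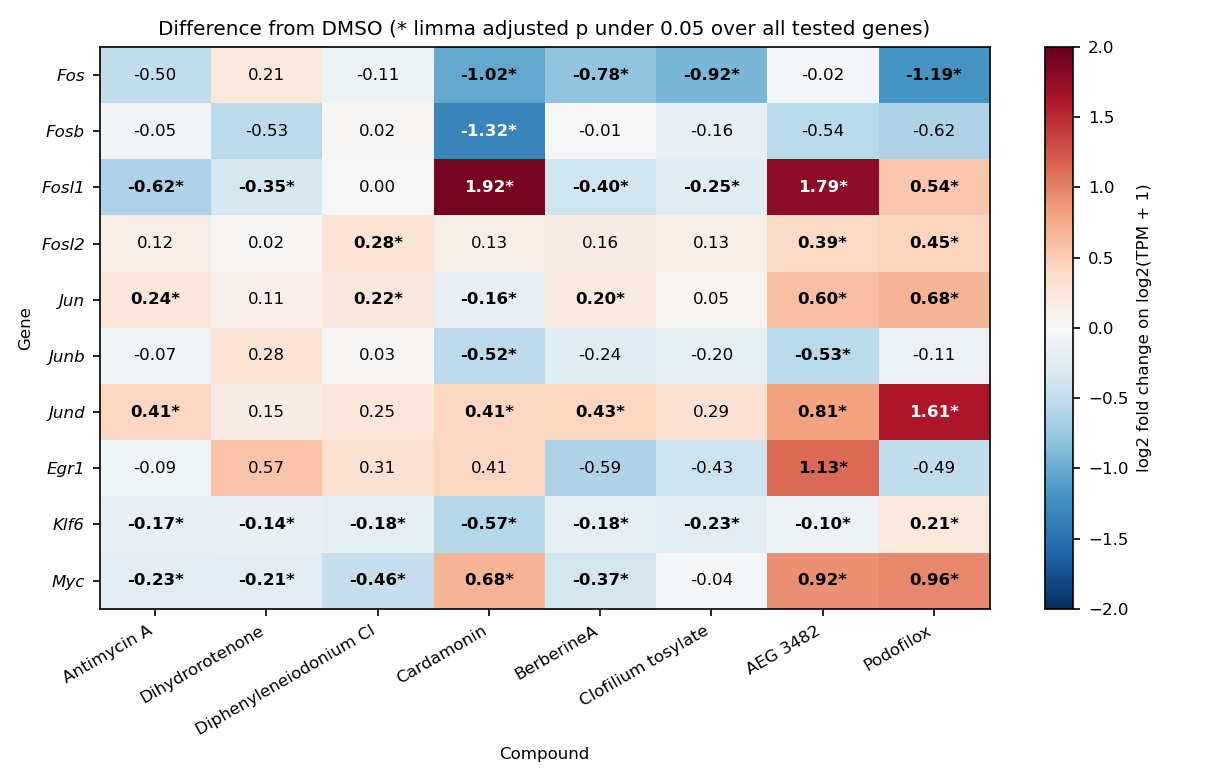
Log2 fold change on log2(TPM + 1) of each of the 10 genes (rows) against DMSO in each of the 8 compounds (columns), coloured from -2 to 2, with an asterisk and bold type where the limma adjusted p was under 0.05. Fosl1 in Cardamonin (1.92) and AEG 3482 (1.79) and Jund in Podofilox (1.61) are the highest values, and Fosb in Cardamonin (-1.32) is the lowest.

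In DMSO the most abundant of the 10 per transcript length was Junb, at 161 ± 31.3 TPM (mean ± SD, n = 6 for DMSO here and below, n = 3 for each compound), followed by Fosl2 at 96.4 ± 7.26, Jun at 89.7 ± 5.00, Egr1 at 73.0 ± 35.0 and Klf6 at 69.3 ± 4.47. Jund stood at 45.5 ± 6.52, Fosl1 at 31.6 ± 2.79 and Myc at 26.6 ± 2.51 TPM. Fos, at 11.7 ± 4.35, and Fosb, at 2.13 ± 0.83, were the lowest. The controls thus carried far more Fosl2 than Fos, in cells measured 48 hours after the agent was added.

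**Figure D2:**
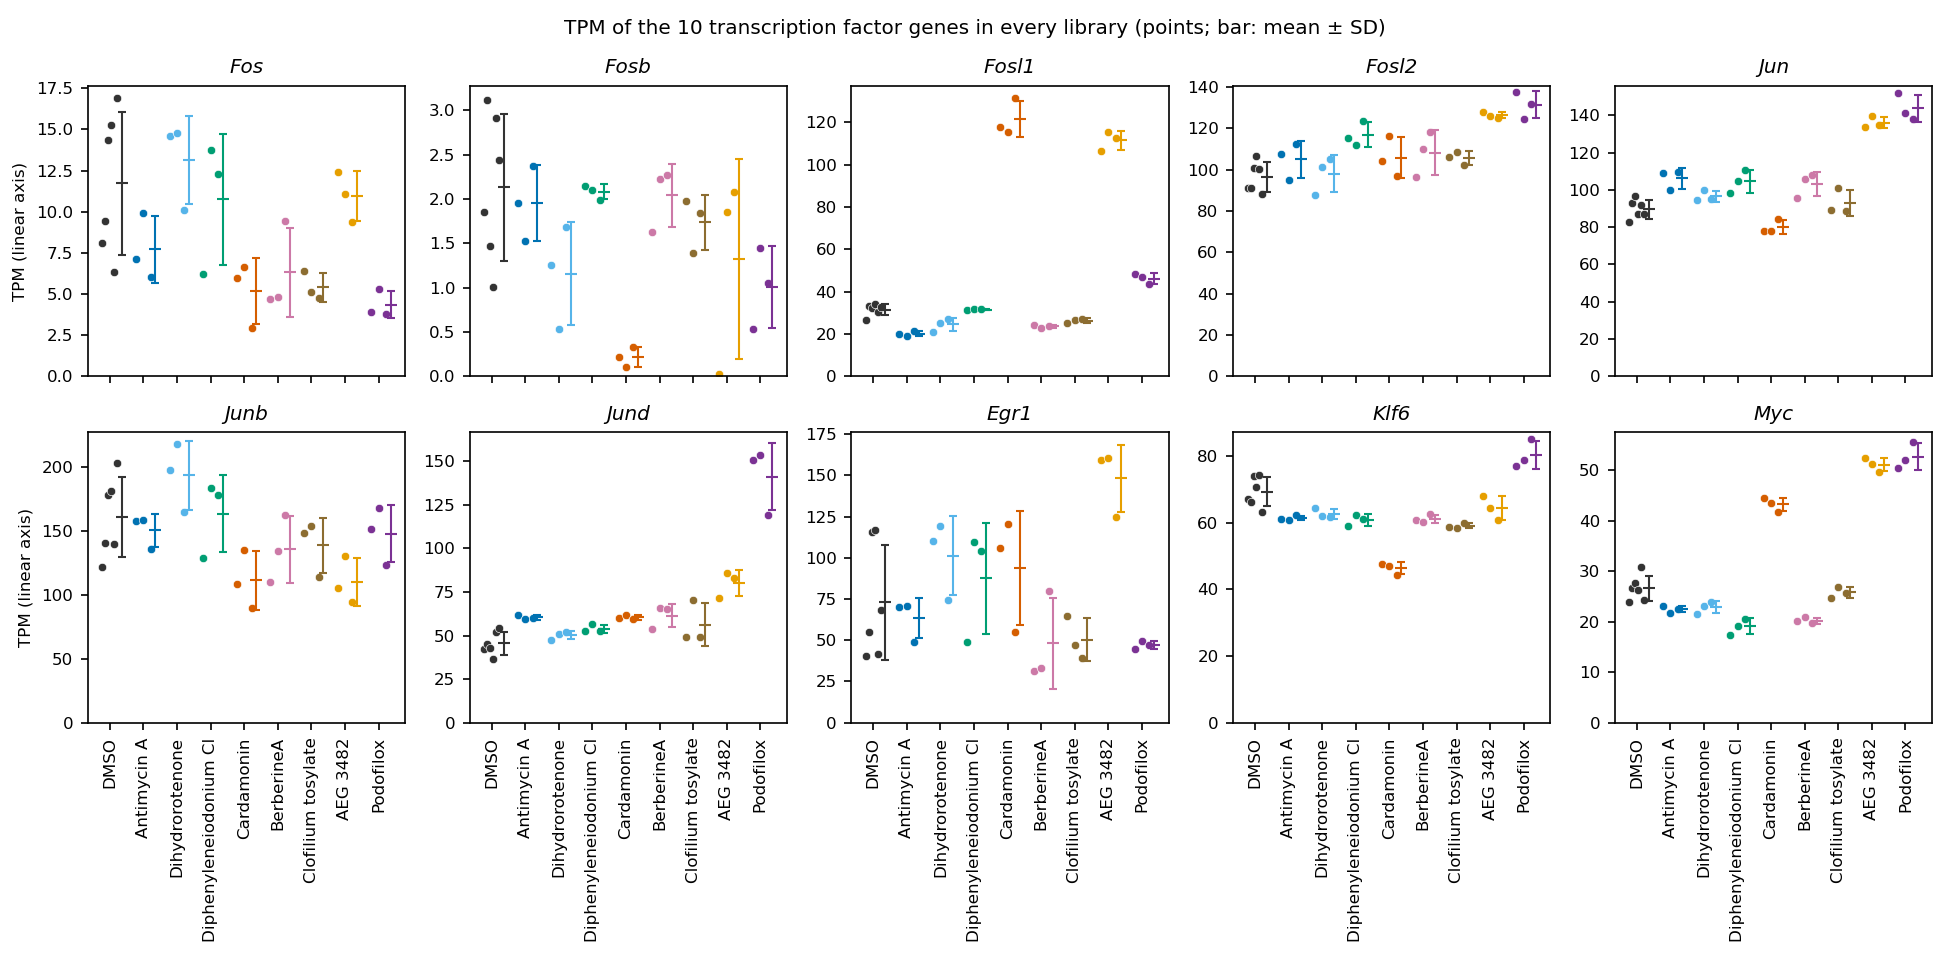
TPM of each of the 10 genes in each of the 30 libraries (points, linear axes from 0, 1 panel a gene), with the mean ± SD of each group beside the points. The Cardamonin and AEG 3482 points of Fosl1 lie between 106 and 131 TPM while every other library lies at or below 48.4, and the 3 Podofilox points of Jund lie between 119 and 154 TPM above all others.

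Fosl1 (ENSMUSG00000024912, chromosome 19, 5447547 to 5455946, GRCm38, 4 exons) encodes FRA-1, a Fos protein without the strong activation domain of c-Fos. In DMSO it ranged from 26.4 to 34.2 TPM with a median of 32.4. In Cardamonin the 3 libraries had 118, 115 and 131 TPM, and in AEG 3482 they had 106, 115 and 112. Both groups lay far above every DMSO library, with log2 fold changes of 1.92 (SE 0.07, adjusted p = 3.27e-18) and 1.79 (SE 0.07, adjusted p = 2.55e-17), or 3.85-fold and 3.53-fold in mean TPM.

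Podofilox gave a smaller rise of Fosl1, with 48.4, 46.7 and 43.5 TPM (log2 fold change 0.54, SE 0.07, adjusted p = 5.61e-07), again above every DMSO library. In Antimycin A the libraries had 19.8, 19.1 and 21.4 TPM, all below every DMSO library (-0.62, adjusted p = 9.24e-08). BerberineA (-0.40, adjusted p = 1.32e-04), Dihydrorotenone (-0.35, adjusted p = 0.00125) and Clofilium tosylate (-0.25, adjusted p = 0.0104) also lowered it. All 3 libraries of BerberineA, 2 of Dihydrorotenone and 1 of Clofilium tosylate lay below the DMSO range. Fosl1 in Dihydrorotenone did not pass when that compound and DMSO were fitted alone (adjusted p = 0.0548). Without Clofilium tosylate replicate 1 the fall in that compound no longer passed (adjusted p = 0.0650). The same call was lost with a block for replicate number (0.0569) and with Clofilium tosylate and DMSO fitted alone (0.0517). In Diphenyleneiodonium Cl Fosl1 stood at 31.5 ± 0.36 TPM, with a difference from DMSO whose 95% interval ran from -0.14 to 0.15 on the log2 scale. In the order of means, Cardamonin, AEG 3482, Podofilox, DMSO, Diphenyleneiodonium Cl, Clofilium tosylate, Dihydrorotenone, BerberineA and Antimycin A, libraries of neighbouring groups overlapped at 3 places: between DMSO and Diphenyleneiodonium Cl, and on both sides of Dihydrorotenone. Cardamonin and AEG 3482 were separated only by the gap between 115.4 and 115.3 TPM. Fosl1 overlaps the protein-coding gene Ccdc85b on the opposite strand, and the labels do not say whether the libraries keep strand.

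Fos (ENSMUSG00000021250, chromosome 12, 85473890 to 85477273, plus strand, 4 exons), the gene of c-Fos, passed the test only as a fall. In DMSO it ranged from 6.32 to 16.9 TPM with a median of 11.9. The Podofilox libraries had 3.93, 5.29 and 3.82 TPM, all below every DMSO library (log2 fold change -1.19, SE 0.27, adjusted p = 8.72e-04). The Cardamonin libraries had 6.002, 6.66 and 2.92 TPM, 2 of them below the DMSO range (-1.02, adjusted p = 0.00184).

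Clofilium tosylate, with 6.42, 5.10 and 4.74 TPM, also lowered Fos (-0.92, adjusted p = 0.0155), as did BerberineA, with 4.69, 4.80 and 9.46 TPM (-0.78, adjusted p = 0.0413). Both of these overlapped DMSO by 1 library and did not hold when some libraries were left out. The Clofilium tosylate call was lost without its replicate 2 (adjusted p = 0.0623) or replicate 3 (0.0711). The BerberineA call was lost without replicate 1 (0.175) or 2 (0.186) of the compound, or without DMSO replicate 3 (0.0779), 4 (0.0780) or 6 (0.0851). In AEG 3482, where Fosl1 was so high, Fos stood at 11.0 ± 1.52 TPM and differed from DMSO by -0.02 (95% interval -0.59 to 0.54). Dihydrorotenone had the highest mean, 13.2 ± 2.67 TPM (0.21), with Diphenyleneiodonium Cl at 10.7 ± 4.00 (-0.11) and Antimycin A at 7.71 ± 2.01 (-0.50), none of which passed. In the order of the 9 group means from Dihydrorotenone down to Podofilox, every group overlapped its neighbour.

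Fosb (ENSMUSG00000003545, chromosome 7, 19302696 to 19310051, 5 exons), the gene of FosB and of its truncated form known from lasting stimulation, ranged from 1.01 to 3.12 TPM in DMSO with a median of 2.14. Cardamonin had 0.220, 0.1004 and 0.333 TPM, all below every DMSO library (log2 fold change -1.32, SE 0.26, adjusted p = 6.98e-05), and no other compound passed. In AEG 3482 the libraries had 0.0294, 1.86 and 2.08 TPM: a single library was near 0 and the others lay inside the DMSO range, so the group differed by -0.54 (adjusted p = 0.0673). In Podofilox Fosb stood at 1.01 ± 0.46 TPM (-0.62, adjusted p = 0.0522). The other 5 compounds had means from 1.16 ± 0.58 TPM in Dihydrorotenone to 2.08 ± 0.09 in Diphenyleneiodonium Cl. Those values are low enough that the pseudocount of 1 TPM shapes the fold change.

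Fosl2 (ENSMUSG00000029135, chromosome 5, 32135801 to 32157842, 4 exons), the gene of FRA-2, was the main Fos family transcript of the controls, from 88.2 to 107 TPM (median 95.9). Fosl2 was higher in Podofilox, with 138, 125 and 132 TPM (log2 fold change 0.45, adjusted p = 1.099e-05), in AEG 3482, with 128, 126 and 125 TPM (0.39, adjusted p = 2.88e-05), and in Diphenyleneiodonium Cl, with 115, 112 and 124 TPM (0.28, adjusted p = 0.00440). All 9 of these libraries lay above every DMSO library. In Cardamonin, where Fosl1 was highest, Fosl2 stood at 106 ± 9.88 TPM and did not pass (0.13, adjusted p = 0.0981). The remaining 4 compounds had means from 98.1 to 108 TPM, all overlapping DMSO.

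The make-up of the Fos family therefore differed between groups. Summed over the 4 genes, the family had 142 ± 10.1 TPM in DMSO, 233 ± 5.23 in Cardamonin, 250.03 ± 3.80 in AEG 3482 and 183 ± 6.71 in Podofilox. Fosl1 was 22.2% ± 1.32 of that sum in DMSO, 52.2% ± 4.23 in Cardamonin, 44.5% ± 1.247 in AEG 3482 and 14.9% ± 0.37 in Antimycin A. No DMSO library was above 24.4% and no Cardamonin or AEG 3482 library was below 43.1%. These sums and shares are descriptions of TPM, not of protein, and carry no test.

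**Figure D3:**
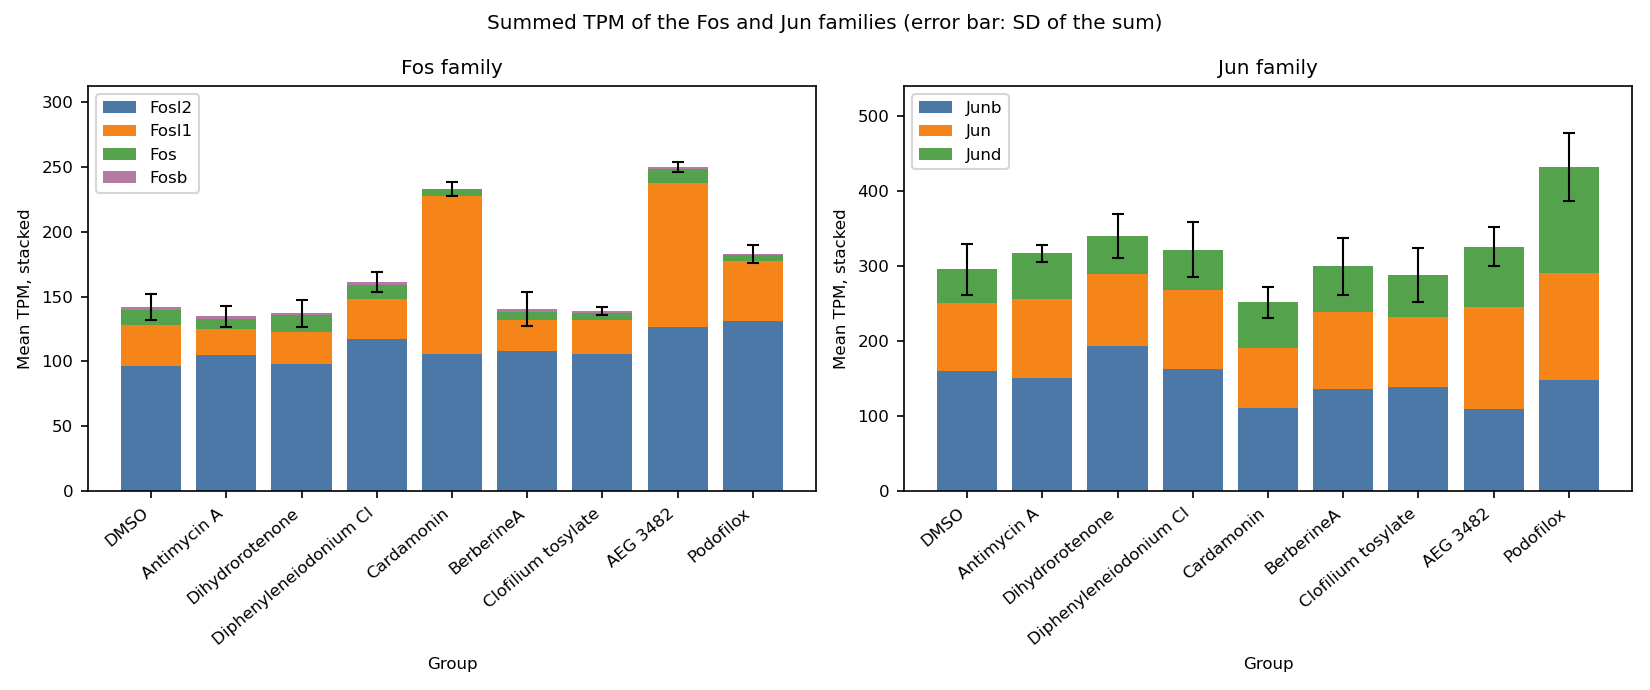
Mean TPM of the Fos family genes (left) and Jun family genes (right), stacked for each group, with an error bar for the SD of the summed TPM (n = 6 for DMSO, n = 3 for each compound). The Fosl1 layer makes up 52.2% of the Fos family sum in Cardamonin and 22.2% in DMSO, and the Jund layer makes up 32.6% of the Jun family sum in Podofilox and 15.5% in DMSO.

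Jund (ENSMUSG00000071076, chromosome 8, 70698949 to 70700616, 1 exon) encodes JunD, the Jun protein usually present in resting cells. In DMSO it ranged from 36.8 to 54.2 TPM with a median of 44.0. In Podofilox the libraries had 151, 154 and 119 TPM, all more than any other library of the study (log2 fold change 1.61, SE 0.11, adjusted p = 7.07e-12), or 3.10-fold in mean TPM. In AEG 3482 they had 71.7, 85.9 and 83.3 TPM, also above every DMSO library (0.81, SE 0.11, adjusted p = 3.88e-07).

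Smaller rises of Jund passed in BerberineA (0.43, adjusted p = 0.00516), Antimycin A (0.41, adjusted p = 0.00417) and Cardamonin (0.41, adjusted p = 0.00178), each with a mean between 60.4 and 61.5 TPM. The 3 libraries of Antimycin A, the 3 of Cardamonin and 2 of BerberineA lay above the DMSO range. Dihydrorotenone (0.15), Diphenyleneiodonium Cl (0.25) and Clofilium tosylate (0.29, with 1 library at 70.4 TPM and the others at 49.3 and 49.1) did not pass. The Clofilium tosylate difference was near the threshold (adjusted p = 0.0573) and passed under 7 alternative settings, with adjusted p from 0.0136 to 0.521 over all of them. That of Diphenyleneiodonium Cl (adjusted p = 0.105) passed under 2. Jund overlaps an antisense gene, Gm11175.

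Jun (ENSMUSG00000052684, chromosome 4, 95049034 to 95052222, minus strand, 1 exon) encodes c-Jun, the Jun protein activated by JNK, and its own promoter is a known target of AP-1. In DMSO it ranged from 82.7 to 96.5 TPM with a median of 89.6. Podofilox had 152, 141 and 138 TPM (log2 fold change 0.68, SE 0.05, adjusted p = 1.30e-10) and AEG 3482 had 134, 139 and 135 TPM (0.60, adjusted p = 3.20e-10). All 6 of these libraries lay above every DMSO library.

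Antimycin A (0.24, adjusted p = 7.87e-04), Diphenyleneiodonium Cl (0.22, adjusted p = 0.00289) and BerberineA (0.20, adjusted p = 0.00763) raised Jun slightly. The BerberineA call was lost without replicate 2 (adjusted p = 0.0514) or replicate 3 (0.0671) of that compound. Cardamonin was the compound that lowered Jun, with 77.8, 77.9 and 84.3 TPM, 2 of them below the DMSO range (-0.16, adjusted p = 0.00942). Jun shares its locus with an antisense gene, Junos.

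Junb (ENSMUSG00000052837, chromosome 8, 84974484 to 84978718, minus strand, 1 exon), a serum-inducible Jun gene whose protein often opposes c-Jun, ranged from 122 to 203 TPM in DMSO with a median of 159. It was lower in AEG 3482, with 105, 130.3 and 94.2 TPM (log2 fold change -0.53, SE 0.16, adjusted p = 0.00593), and in Cardamonin, with 109, 135 and 89.8 TPM (-0.52, SE 0.16, adjusted p = 0.00651). In each of the 2 groups 2 libraries lay below the DMSO range and 1 inside it. Either call rested on the lowest library: without AEG 3482 replicate 3 the adjusted p was 0.0510, and without Cardamonin replicate 3 it was 0.0737. In Dihydrorotenone the mean was 193 ± 27.1 TPM, within the DMSO spread (0.28, adjusted p = 0.290). Junb overlaps the protein-coding gene Prdx2 on the opposite strand.

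Summed over its 3 genes the Jun family had 296 ± 34.0 TPM in DMSO, 432 ± 45.1 in Podofilox, 326 ± 25.5 in AEG 3482 and 252 ± 21.3 in Cardamonin. Jund was 15.5% ± 2.33 of the sum in DMSO, 32.6% ± 1.13 in Podofilox, 24.6% ± 1.84 in AEG 3482 and 24.1% ± 1.49 in Cardamonin. The ratio of Fos family to Jun family TPM was 0.483 ± 0.041 in DMSO, 0.929 ± 0.063 in Cardamonin, 0.769 ± 0.047 in AEG 3482 and 0.426 ± 0.044 in Podofilox. The Cardamonin and AEG 3482 libraries, from 0.715 up, all lay above the DMSO libraries, which reached 0.517.

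Egr1 (ENSMUSG00000038418, chromosome 18, 34859823 to 34864984, 3 exons), a zinc finger factor and among the fastest serum-response genes, varied widely between control libraries: from 40.7 to 117 TPM with a median of 61.7. It passed in 1 compound, AEG 3482, with 159, 161 and 125 TPM, all above every DMSO library (log2 fold change 1.13, SE 0.34, adjusted p = 0.00500). In Cardamonin the libraries had 106, 121 and 54.9 TPM, with 1 above the DMSO range (0.41, 95% interval -0.29 to 1.12, adjusted p = 0.289). Podofilox, with 44.6, 49.6 and 47.2 TPM, stayed inside the DMSO range (-0.49, adjusted p = 0.258). BerberineA had 31.5, 32.9 and 80.2 TPM, Clofilium tosylate 50.4 ± 13.2, Antimycin A 63.3 ± 12.2, Diphenyleneiodonium Cl 87.5 ± 33.6 and Dihydrorotenone 101 ± 23.9 TPM. Apart from AEG 3482 each group overlapped the next in the order of means. At this spread differences of the size seen in Cardamonin or Podofilox were not detectable.

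Klf6 (ENSMUSG00000000078, chromosome 13, 5861482 to 5870394, 4 exons), a Krüppel-like factor, was by contrast a steady gene. In DMSO it ranged from 63.3 to 74.4 TPM with a median of 68.99. Cardamonin lowered it to 47.7, 46.9 and 44.2 TPM, below every DMSO library (log2 fold change -0.57, SE 0.05, adjusted p = 2.69e-11), and Podofilox raised it to 77.0, 78.8 and 85.0 TPM, above every DMSO library (0.21, adjusted p = 4.76e-04).

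In the other 6 compounds Klf6 was lower by small amounts, from -0.10 in AEG 3482 to -0.23 in Clofilium tosylate. Of these, 3 did not hold under other settings. In BerberineA (-0.18, adjusted p = 0.00609) the call was lost when the compound and DMSO were fitted alone (0.0665). In AEG 3482 (adjusted p = 0.0453) the call was lost without replicate 2 (0.0884) or 3 (0.283) of the compound or DMSO replicate 3 (0.0999), 4 (0.0718) or 5 (0.103). In Dihydrorotenone (-0.14, adjusted p = 0.0384) it was lost without replicate 1 (0.0603), 2 (0.127) or 3 (0.123) of the compound or DMSO replicate 3 (0.0830), 4 (0.0602) or 5 (0.0838).

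Myc (ENSMUSG00000022346, chromosome 15, 61985391 to 61990374, 3 exons), a factor that drives ribosome production and growth, ranged from 23.9 to 30.8 TPM in DMSO (median 26.5). Myc was higher in Podofilox, with 50.5, 52.0 and 55.6 TPM (log2 fold change 0.96, SE 0.06, adjusted p = 1.53e-12), in AEG 3482, with 52.4, 51.3 and 49.7 TPM (0.92, adjusted p = 7.72e-13), and in Cardamonin, with 44.4, 43.4 and 41.8 TPM (0.68, adjusted p = 1.65e-10). All 9 of these libraries lay above every DMSO library, and Fosl1 was also higher in these 3 compounds. Clofilium tosylate, at 25.8 ± 1.10 TPM, did not pass (-0.04, 95% interval -0.16 to 0.08).

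Myc was lower in Diphenyleneiodonium Cl, with 17.4, 19.3 and 20.6 TPM (-0.46, adjusted p = 2.34e-06), BerberineA (-0.37, adjusted p = 4.76e-05), Antimycin A (-0.23, adjusted p = 0.00362) and Dihydrorotenone (-0.21, adjusted p = 0.0218). The libraries of Diphenyleneiodonium Cl, BerberineA and Antimycin A lay wholly below DMSO. The Dihydrorotenone call was lost without its replicate 1 (adjusted p = 0.147) or 2 (0.0588). In Diphenyleneiodonium Cl Myc fell while Fosl1 did not pass. All comparisons with DMSO share the same 6 control libraries.

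The 3 compounds with higher Fosl1 and Myc were also compared with each other in the same limma model. Between Cardamonin and AEG 3482, 7 of the 10 genes differed, against 55.3% of all genes, and all 7 were lower in Cardamonin. They were Fos (-1.001, SE 0.32, adjusted p = 0.00920), Fosb (-0.78, SE 0.30, adjusted p = 0.0301), Jun (-0.76, SE 0.06, adjusted p = 1.37e-10), Klf6 (-0.47, SE 0.05, adjusted p = 4.19e-08), Jund (-0.40), Fosl2 (-0.26) and Myc (-0.24). For Fosb, AEG 3482 replicate 1, at 0.0294 TPM, lay below every Cardamonin library, and at such levels the pseudocount shapes the fold change. Fosl1 did not pass, at 0.12 with a 95% interval of -0.04 to 0.29, and neither did Junb, at 0.01 (-0.38 to 0.40), nor Egr1, at -0.72 (-1.54 to 0.09).

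Between AEG 3482 and Podofilox, 5 of the 10 genes differed, against 60.3% of all genes. Egr1 (1.62, SE 0.39, adjusted p = 9.46e-04), Fosl1 (1.252, SE 0.08, adjusted p = 9.15e-13) and Fos (1.16, SE 0.32, adjusted p = 0.00259) were higher in AEG 3482, and Jund (-0.80, SE 0.13, adjusted p = 5.75e-06) and Klf6 (-0.32, SE 0.05, adjusted p = 1.29e-05) were lower. Myc differed by -0.04 (95% interval -0.18 to 0.10), Jun by -0.08 (-0.20 to 0.05) and Fosl2 by -0.06 (-0.22 to 0.11), none of which passed. Between Cardamonin and Podofilox 7 differed, against 57.8% of all genes: Fosl1 was higher in Cardamonin (1.38), and Jund (-1.20), Jun (-0.84), Klf6 (-0.78), Fosb (-0.70), Fosl2 (-0.31) and Myc (-0.28) were lower. The Fosb difference lay near the threshold (adjusted p = 0.0490).

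Antimycin A and Dihydrorotenone, which both block electron transport but at different complexes, differed in 1 of the 10 genes, against 15.5% of all genes tested. That gene was Fosl1, lower in Antimycin A by -0.27 (SE 0.08, adjusted p = 0.0209), although the highest library of Antimycin A, at 21.4 TPM, lay just above the lowest of Dihydrorotenone, at 21.2. Fos, at -0.71 (95% interval -1.36 to -0.05, adjusted p = 0.142), and Egr1, at -0.66 (-1.47 to 0.15, adjusted p = 0.291), did not pass. Neither did Junb or Jund. For these 4 genes the libraries of the 2 groups did not overlap. The share of all genes without overlap is not given here, and Fos, Egr1 and Junb varied together between libraries. No difference is therefore read from the lack of overlap. No doses are known for the compared compounds.

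Within groups, replicate libraries differed from each other far more for some of the 10 genes than for others. The pooled within-group SD on log2(TPM + 1) was 0.52 for Egr1, 0.42 for Fos, 0.39 for Fosb and 0.25 for Junb, larger than for 99.3%, 98.9%, 98.7% and 95.9% of the 10178 genes with a mean of at least 5 TPM. For Jund it was 0.16 and for Fosl2 and Fosl1 it was 0.10. For Klf6, at 0.06, only 9.28% of genes had a smaller SD, and for Jun, at 0.08, 20.9%. Egr1, Fos and Junb, named above as classic early genes, were thus variable, whereas Jun, Klf6 and Myc (0.08), also early genes, were steady. Fosb, also named there, averaged 1.58 TPM over all libraries and was thus ranked against genes of higher level. Its SD includes a deviation of -1.02 in AEG 3482 replicate 1. Its deviations did not rise with those of Egr1 (Pearson r = -0.35) or Fos (r = -0.32).

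The variation of Egr1, Fos and Junb was shared. Each library's deviation from its group mean was compared between the 10 genes over the 30 libraries, with permutation within groups (100000 resamples, two-sided) and adjustment over the 45 pairs. Fos and Egr1 deviated together (Pearson r = 0.91, Spearman rho = 0.91, adjusted permutation p = 4.50e-04 for r and 3.00e-04 for rho), as did Fos and Junb (r = 0.84, rho = 0.87) and Junb and Egr1 (r = 0.80, rho = 0.80). These were the 3 pairs of 45 that passed. Without the 2 libraries farthest from the median of the first-named gene of each pair, r was 0.89, 0.84 and 0.76.

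The correlations were positive in controls and in treated libraries. In controls only that of Fos and Junb had an exact permutation p under 0.05, without adjustment. The treated libraries alone were not tested. Over the 6 DMSO libraries r was 0.83 for Fos and Egr1 (exact permutation p = 0.0611), 0.91 for Fos and Junb (exact permutation p = 0.0375) and 0.77 for Junb and Egr1 (exact permutation p = 0.107). Over the 24 treated libraries it was 0.95, 0.81 and 0.83. DMSO replicates 3 and 4 were the high libraries for Egr1, with 115 and 117 TPM, and had 14.4 and 15.3 TPM of Fos, while DMSO replicates 1 and 5 were the low ones, with 40.7 and 41.5 TPM of Egr1 and 8.07 and 6.32 TPM of Fos. DMSO replicate 6 went another way, with the highest Fos (16.9 TPM) and Junb (203 TPM) of the controls but 68.6 TPM of Egr1. Replicate 3 was the lowest of its group for Egr1 and Fos in Antimycin A, Dihydrorotenone, Cardamonin, Clofilium tosylate and AEG 3482. In Diphenyleneiodonium Cl the lowest was replicate 1. BerberineA went the other way, with replicate 3 the highest of its group for both genes. In Podofilox replicate 3 was the lowest for Fos and replicate 1 for Egr1.

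**Figure D4:**
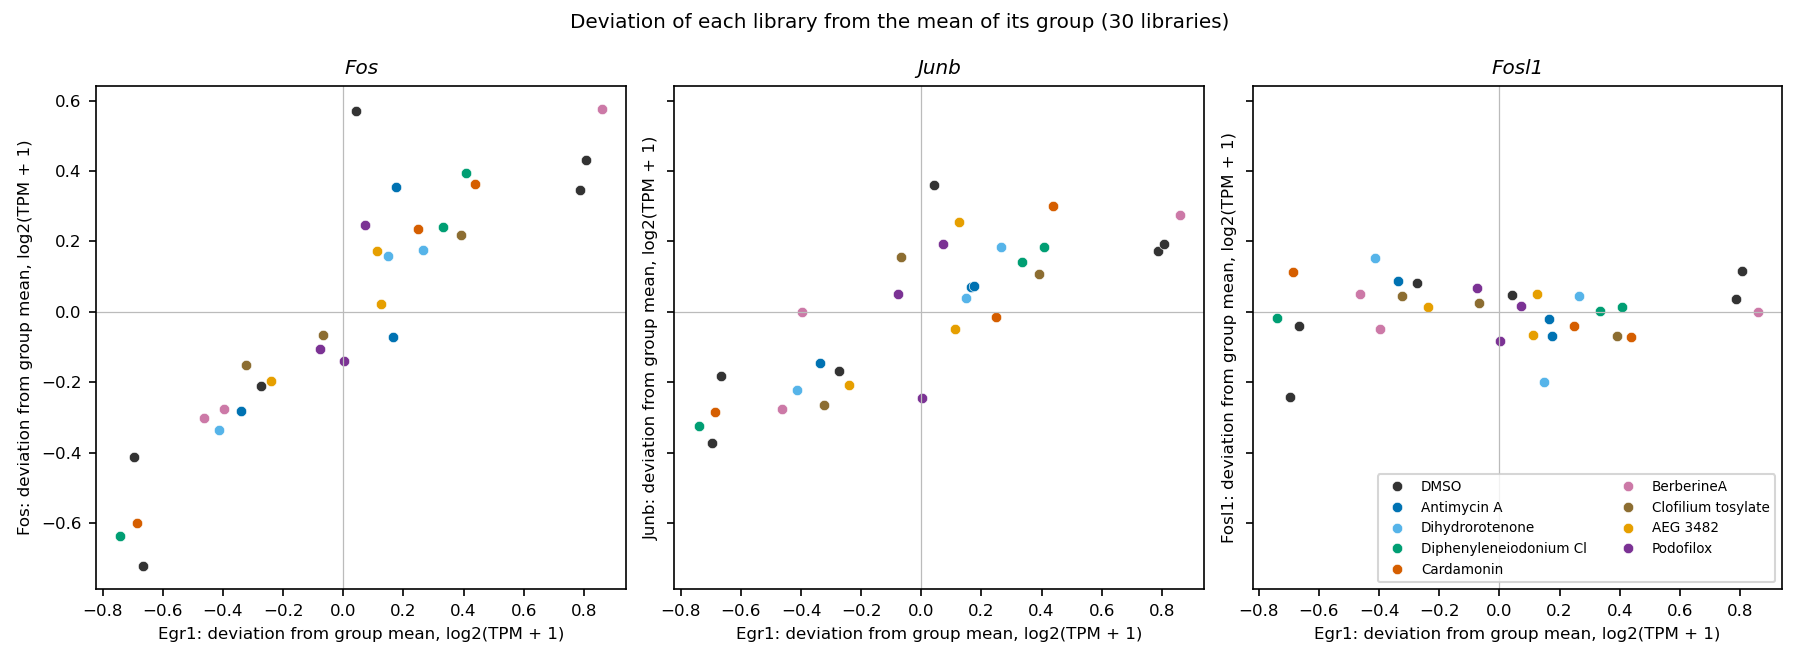
Deviation of each of the 30 libraries from the mean of its group, on log2(TPM + 1), for Egr1 (horizontal axes) against Fos (left), Junb (middle) and Fosl1 (right), coloured by group. Fos and Junb follow Egr1 (r = 0.91 and 0.80), while r was 0.02 for Fosl1.

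Other early genes varied with them. From a list of 21 tested immediate early genes outside the set, 7 deviated with Egr1 at an adjusted permutation p under 0.05: Btg2 (r = 0.92, rho = 0.89), Ier2 (0.91, 0.91), Ier3 (0.89, 0.89), Zfp36 (0.84, 0.84), Sgk1 (0.73, 0.71), Ccn1 (0.63, 0.60) and Arc (0.59, 0.59). Without the 2 libraries farthest from the median, r was 0.90 for Btg2 and 0.49 for Arc, and between these for the other 5. Over all 13643 other tested genes the median r with Egr1 was 0.06, and 17 genes (0.125%) were above 0.7. Of these 17, 7 were Fos, Junb and 5 of the listed early genes. Txnip, H3f3b and Nfil3 were also among the 17 and are named after their values were seen.

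This variation is part of the error against which Egr1, Fos and Junb were tested. No label separates the high from the low libraries in every group, though replicate 3 was the lowest in the compounds named above. Same-numbered libraries of different groups did not deviate together over 10076 genes. That median over many genes cannot speak for Egr1, Fos and Junb alone. The labels used here give no time of harvest for single libraries. What set the libraries apart was not tested.

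By group means, the genes most like a member were found among 10209 genes with at least 5 TPM in a group, as Pearson r over the 9 group means of log2(TPM + 1), a description with no test. For Fosl1 they were Slx4ip and Ppme1 (r = 0.99 for both). Ppme1 had 31.5 TPM in DMSO, 49.8 in Cardamonin and 48.6 in AEG 3482, a far smaller range than that of Fosl1. For Myc they were Dcbld2 and Cad (0.98 for both), for Jund Grasp and Bcl2l13 (0.98 for both), for Jun Stk38l (0.98) and Ndst1 (0.97), for Klf6 Atrnl1 (0.99) and Snap23 (0.98), and for Fosb Ddb2 (0.98) and Stxbp3 (0.97). Fosl2 (Med15, 0.96, and Arfip2, 0.94), Fos (Hsbp1, 0.96, and Tbck, 0.88), Junb (Smad7, 0.95, and Bcs1l, 0.92) and Egr1 (Hist2h2aa2, 0.92, and Aplp2, 0.91) had weaker likenesses.

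The genes around the set were read from lists of known function. The lists, like the 10 genes, were drawn up with earlier results of these data known, so their directions are descriptions. Over all genes tested, 37.3% were called higher and 33.0% lower in Cardamonin, 41.3% and 26.8% in AEG 3482, and 26.2% and 19.97% in Podofilox. Of 21 genes of the route from growth factor receptors through ERK to serum response factor, Cardamonin raised 10 and lowered 8, AEG 3482 raised 12 and lowered 5, and Podofilox raised 9 and lowered 5. Medians over the list were 0.05, 0.20 and 0.06, against 0.03, 0.10 and 0.04 over all genes. The 18, 17 and 14 genes called, of 21, stand against 70.3%, 68.1% and 46.2% of all genes. The receptors Egfr and Pdgfrb fell in Cardamonin by 1.64 and 1.29 on the log2 scale.

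Among 12 JNK and p38 pathway genes, Cardamonin raised 6 and lowered 4, AEG 3482 raised 4 and lowered 2, and Podofilox raised 4 and lowered 1. With median-ratio scaling the AEG 3482 counts turned to 4 and 5, so no direction is given for that list. Called genes numbered 10, 6 and 5 of 12, against 70.3%, 68.1% and 46.2% of all genes. Mapk9, which encodes JNK2, rose from 39.3 ± 3.31 TPM to 92.8 ± 1.86 in Cardamonin (1.22) and to 82.8 ± 2.44 in AEG 3482 (1.06, adjusted p = 8.32e-15). Map2k3, a kinase that activates p38, rose to 116 ± 6.60 TPM in AEG 3482 from 59.1 ± 1.86 (0.96, adjusted p = 4.60e-15).

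Genes that damp MAP kinase signalling, mainly dual specificity phosphatases and Sprouty proteins, were split. Of 15 tested, Cardamonin raised 5 and lowered 9, and AEG 3482 and Podofilox each raised 8 and lowered 4. Called genes numbered 14, 12 and 12 of 15, against 70.3%, 68.1% and 46.2% of all genes, and the list medians were -0.27, 0.27 and 0.23, against 0.03, 0.10 and 0.04. Dusp4, a nuclear phosphatase of ERK and JNK, rose from 2.09 ± 0.42 TPM in DMSO to 38.1 ± 3.76 in Cardamonin (3.67, adjusted p = 1.66e-20) and 13.9 ± 2.07 in AEG 3482 (2.27, adjusted p = 4.66e-16), the compounds with the highest Fosl1. In Podofilox the JNK and p38 phosphatase genes Dusp10 (2.17, adjusted p = 7.48e-17) and Dusp8 (2.24, adjusted p = 1.55e-16) rose. Spry1, an inhibitor of receptor signalling, fell in all 8 compounds, from -0.65 in Dihydrorotenone to -1.83 in Cardamonin, with the highest adjusted p at 5.93e-04.

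Among 14 tested bZIP partners of the AP-1 proteins, Cardamonin raised 7 and lowered 3, AEG 3482 raised 7 and lowered 4, and Podofilox raised 8 and lowered 3. The 10 and 11 of 14 called in Cardamonin and AEG 3482 were near the 70.3% and 68.1% of all genes, while 11 of 14 in Podofilox stand against 46.2%. In AEG 3482 the counts were 6 and 6 with quantile normalization. Atf3, a stress-induced partner of Jun proteins, rose from 5.40 ± 1.16 TPM to 44.1 ± 1.55 in Podofilox (2.84, adjusted p = 2.10e-16) and 34.6 ± 2.15 in Cardamonin (2.49, adjusted p = 1.11e-16). Mafg, a small Maf protein that also pairs with NRF2, rose from 72.5 ± 4.61 TPM to 197 ± 5.81 in AEG 3482 (1.43) and 176 ± 5.36 in Cardamonin (1.27, adjusted p = 1.13e-12).

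Known AP-1 target genes, 18 of them tested, moved in different directions between compounds. Podofilox raised 10 and lowered 5 (median 0.46, against 0.04 over all genes). Mmp12 rose there from 26.6 ± 3.87 to 708 ± 53.3 TPM (4.69, adjusted p = 2.59e-21) and Mmp10 from 32.3 ± 5.62 to 196 ± 13.9 TPM (2.58, adjusted p = 4.91e-15). Both encode matrix metalloproteinases. In Cardamonin 5 rose and 9 fell (median -0.34), and in AEG 3482 3 rose and 10 fell (median -0.22). Over all genes the medians were 0.03 and 0.10. Called genes numbered 15 of 18 in Podofilox, 14 in Cardamonin and 13 in AEG 3482, against 46.2%, 70.3% and 68.1% of all genes.

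In Cardamonin Plaur, the urokinase receptor gene, rose from 6.85 ± 1.14 to 24.0 ± 2.18 TPM (1.68), and Areg, which encodes the growth factor amphiregulin, rose from 0.179 ± 0.13 to 7.05 ± 1.29 TPM (2.77, adjusted p = 3.27e-18). Fst, the gene of follistatin, fell by 2.48 and Ccnd1, of cyclin D1, by 2.06 on the log2 scale. In AEG 3482 Mmp9, a gelatinase gene, fell from 243 ± 22.5 to 38.1 ± 2.99 TPM (-2.64, adjusted p = 1.42e-18). In the other 5 compounds 10 or 11 of the 18 fell (9.16% to 15.5% of all genes were lower) and 1 or 2 rose, with medians from -0.54 in BerberineA to -0.29 in Clofilium tosylate.

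Known MYC targets, 25 genes mainly of ribosome production, were mostly higher in Cardamonin and Podofilox, though not in AEG 3482, the other compound with higher Myc. Cardamonin raised 21 and lowered 2 (median 0.64), Podofilox raised 20 and lowered 1 (median 0.31), and AEG 3482, where Myc did not differ detectably from Podofilox, raised 12 and lowered 4 (median 0.10, against 0.10 over all genes), with 41.3% of all genes called higher there. With median-ratio scaling of the libraries the AEG 3482 counts were 9 and 5 (median -0.02). In AEG 3482 Odc1, the rate-limiting enzyme of polyamine synthesis, rose from 29.04 ± 1.35 to 150 ± 5.56 TPM (2.33, adjusted p = 1.60e-20). Ccnd2, the gene of cyclin D2, fell in all 3, by 1.24 in AEG 3482, 0.94 in Cardamonin and 0.35 in Podofilox on the log2 scale. In Diphenyleneiodonium Cl, where Myc was lowest, 0 of the 25 rose and 9 fell (median -0.10). Of all genes there, 14.0% were higher and 11.7% lower (median 0.02). Of the other compounds with lower Myc, BerberineA raised 2 and lowered 5, and Dihydrorotenone raised 0 and lowered 7. Antimycin A went the other way, raising 8 and lowering 5, though these counts were 4 and 6 with median-ratio scaling.

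Among 10 tested partners and rivals of MYC, Cardamonin raised 5 and lowered 4, AEG 3482 raised 5 and lowered 3, and Podofilox raised 5 and lowered 2. The 9 and 8 of 10 called in Cardamonin and AEG 3482 stand against 70.3% and 68.1% of all genes, and the 7 in Podofilox against 46.2%. Mxd1, which encodes a repressor that competes with MYC for MAX, fell in Cardamonin from 12.1 ± 0.61 to 4.29 ± 0.68 TPM (-1.32, adjusted p = 1.75e-15), in AEG 3482 (-0.47) and in Podofilox (-0.19, adjusted p = 0.0205). It rose in Diphenyleneiodonium Cl (0.56, adjusted p = 4.24e-07), Antimycin A (0.34) and BerberineA (0.31, adjusted p = 0.00105), the reverse of Myc in each of these 6 compounds. Dihydrorotenone, where Myc was also lower, did not share this: 0 of the 10 genes, Mxd1 among them, were called higher there and 1 was called lower. The comparisons share the DMSO libraries.

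Of 21 tested immediate early genes outside the set, AEG 3482 raised 11 and lowered 5 (median 0.55), Cardamonin raised 8 and lowered 7 (median 0.18) and Podofilox raised 8 and lowered 8 (median 0.05). Called genes numbered 16, 15 and 16 of 21, against 68.1%, 70.3% and 46.2% of all genes, whose medians were 0.10, 0.03 and 0.04. Ccn2 and Ccn1, matricellular genes also under YAP and serum response factor, fell in Cardamonin from 128 ± 22.9 to 2.10 ± 1.72 TPM (-5.51, adjusted p = 1.74e-18) and from 216 ± 43.2 to 9.63 ± 1.66 TPM (-4.34, adjusted p = 1.05e-17). In AEG 3482, where Egr1 rose, Ccn2 fell to 7.16 ± 0.34 TPM (-3.96) while Klf4, a Krüppel-like factor, rose from 23.5 ± 2.73 to 77.0 ± 2.05 TPM (1.67, adjusted p = 6.56e-14) and Rhob, a small GTPase gene, from 44.0 ± 5.18 to 133 ± 9.04 TPM (1.58). In the other 5 compounds 0 or 1 of the 21 rose and 4 to 10 fell, with 9.16% to 15.5% of all genes lower.

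The labelled cell type was checked on marker genes. The 7 fibroblast markers, among them Col1a1, Col1a2, Dcn and Vim, were at 1 TPM or more in every group. Their sum was 6690.3 to 8370.4 TPM in DMSO, 2792 to 3315 TPM in Cardamonin and 6175 TPM or more in every other library. Of 5 keratinocyte markers Krt5 was listed at 0 in all 30 libraries and 1, Krt10, reached 1.02 to 2.38 TPM. The 5 myoblast markers summed to at most 0.821 TPM, with Myod1 listed at 0 throughout. Of 4 chondrocyte markers Sox9 had 3.13 to 7.29 TPM, while Acan reached at most 0.0120. Of 4 endothelial markers Cdh5 reached at most 0.0300 TPM, but Tek had 0.477 to 8.18. The endothelial sum was 5.42 to 8.71 TPM in DMSO, 1.09 to 1.18 in Cardamonin and 1.63 to 1.77 in AEG 3482, the compounds with the highest Fosl1. The 6 macrophage and leukocyte markers summed to 191 to 251 TPM in DMSO and 102 to 219 TPM in the treated groups, mainly as Lyz2, Cd14 and Cd68. Of the others, Adgre1 had 1.62 to 12.1 TPM and Csf1r 0.698 to 3.46 TPM, while Ptprc, which marks all leukocytes, reached at most 0.876 TPM. The part of these differences in the results was not tested, and in bulk RNA fewer cells of a type and less RNA per cell cannot be told apart.

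Further limits concern all values. TPM keeps no record of sequencing depth, so depth is unknown. The identification numbers of the libraries ran consecutively by group, so group and library order cannot be told apart.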

How the data were processed

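RNA was measured by sequencing of ribosome-depleted total RNA in 30 libraries, 6 of DMSO and 3 of each of 8 compounds, grouped by the labelled treatment. Transcript abundance was estimated by the authors using kallisto (version 0.43.1 per the submitters' processing notes, which also name the build mm10) and summed them per gene with tximport, per the series text. The deposited table holds TPM made by the authors. The listed genes summed to 927024 to 937134 TPM per library. Depth and strand setting are not given in the sources used here, and no counting interval or floor was computed.

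From these TPM values, log2(TPM + 1) was fitted with limma 3.58.1 (R 4.3.3) over all 30 libraries, with 1 mean per group, trended empirical Bayes variances and no block. Genes had to reach 1 TPM in 3 or more libraries. Benjamini-Hochberg adjustment was made within each comparison over 13644 genes. All 36 pairs of groups were fitted, and the 4 pairs of compounds printed were chosen with their values known. The fit was tested on simulated data. Correlations used numpy 2.4.6 and scipy 1.17.1 in Python 3.11.15. Identifiers, symbols and gene positions come from GENCODE M21 (GRCm38), promoters from RefSeq (GRCm38.p6).

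The 10 genes, the lists of related genes and the marker lists were chosen with earlier results of these data known. Beside all 10 genes, the text names from each related list, for each compound, up to 2 genes with the largest rise and up to 2 with the largest fall among those past the threshold (adjusted p of 0.05) whose higher group averaged 5 TPM or more. It also names the 2 genes most like each member, with at least 5 TPM in a group. Early genes are named by their correlation with Egr1, outside this rule. Alternatives covered the pseudocount, the filter, scaling, the samples fitted, the trend, a replicate block and leaving out each library.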

Additional observations from a re-analysis of the deposited data

How the results depend on the processing

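Of the 44 gene-by-compound differences from DMSO that passed, 33 passed under every alternative, 11 were lost under at least 1, and 0 reversed. Of the 36 that did not pass, 7 passed under at least 1 alternative, among them Fosb in AEG 3482 (-1.35, limma adjusted p = 0.0392, with a pseudocount of 0.1 TPM) and in Podofilox. The count for Dihydrorotenone moved most: 3 of the 10 genes passed in all 30 libraries, 0 when the compound and DMSO were fitted alone (fewer samples in the fit), and 1 to 3 when libraries were left out in turn. Its lowest counts came without Dihydrorotenone replicate 1 or 2. Over all genes the Dihydrorotenone count was 1963, 898 in the fit of 2 groups, and 1233 to 2179 when libraries were left out. For no other compound did either count move by more than 1.5 times.

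Replicate numbers did not pair the libraries over 10076 genes: the median correlation of deviations between same-numbered libraries was 0.01, 0.03 and 0.00 for numbers 1, 2 and 3. With the replicate block, 2 of the 10 genes passed in Dihydrorotenone, 5 in Antimycin A, 5 in Diphenyleneiodonium Cl, 8 in Cardamonin, 5 in BerberineA, 3 in Clofilium tosylate, 7 in AEG 3482 and 7 in Podofilox.

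Median-ratio scaling moved the median of all genes in AEG 3482 from 0.10 to -0.01, and every one of the 10 genes kept its direction there. It moved the higher share of all calls from 60.7% to 49.4% in AEG 3482, from 57.9% to 47.7% in BerberineA and from 34.4% to 50.7% in Dihydrorotenone. Over 3 other scalings of the related lists in 8 compounds, 164 of the list results kept the sign of their median and the direction of their majority. In 28 the median changed sign with no reversal of the majority, in 9 the majority reversed, and in 15 it turned to or from a tie. The direct contrasts between compounds and the correlations were not repeated under these alternatives. Depth is unknown, so its part in the spread of low values such as Fosb was not tested.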

Other observations

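The other Krüppel-like factor genes, 11 tested of 13 listed, differed by compound from Klf6. AEG 3482 raised 8 and lowered 2 (median 0.69 on the log2 scale, against 0.10 over all genes, of which 41.3% were called higher and 26.8% lower), while Klf6 there was at -0.10. Klf2, a factor known from quiescent T cells, rose in AEG 3482 from 4.87 ± 0.94 to 14.8 ± 1.99 TPM (1.44, limma adjusted p = 4.25e-10). Klf4 is described above with the early genes. Cardamonin raised 5 and lowered 4 (37.3% and 33.0% of all genes), with Klf5 rising from 6.52 ± 0.66 to 16.0 ± 1.48 TPM (1.18, limma adjusted p = 1.75e-12) and Klf3 falling by 0.38 on the log2 scale. Podofilox raised 2 and lowered 4 (26.2% and 19.97% of all genes), with Klf9, a target of glucocorticoids, rising from 17.1 ± 2.16 to 44.2 ± 1.69 TPM (1.32, limma adjusted p = 8.99e-14). Klf9 also rose in Antimycin A (0.73), Diphenyleneiodonium Cl (0.58), BerberineA (0.45) and Clofilium tosylate (0.30). Klf6 was lower in these 4 compounds, and also in Dihydrorotenone, AEG 3482 and Cardamonin.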
